A study of Homo sapiens with 12 samples.

Results

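The AICAR by hairpin interaction is the amount by which the transcriptional response to AICAR differed between HepG2 cells carrying a hairpin against p53 and HepG2 cells carrying a control hairpin. For each gene it was the AICAR minus DMSO difference in the p53 hairpin line less the same difference in the control line, on the log2 scale. A value below 0 means that the gene responded more positively in the control line, and a value above 0 that it responded more positively in the p53 hairpin line. The interaction rests on 8 of the 12 arrays of the series and was computed for every gene measured by a probe set with a single gene symbol, 18417 in number. Of these, 13813 were bright enough to be tested and 4604 were left out as dim.

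HepG2 is a human hepatoma cell line. One derivative carried a small hairpin RNA with no relevant target (sh-con) and the other a small hairpin RNA for p53 (sh-p53). Cells were plated at 700000 per well, in duplicate, and exposed for 24 h to DMSO, the solvent control, to 10 uM Nutlin or to 0.5 mM AICAR, and 200 ng of total RNA of each well was hybridised to an Affymetrix gene array. The groups used for the interaction were sh-con with DMSO, sh-con with AICAR, sh-p53 with DMSO and sh-p53 with AICAR, with 2 arrays each. The labels name 1 line for each hairpin, so less p53 cannot be told apart from any other difference between both lines. Levels are log2 values from the robust multi-array average (RMA), and a difference of 1 is a doubling.

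p53 is a transcription factor that is kept low by MDM2, its ubiquitin ligase and target gene, and that activates genes of growth arrest, apoptosis, DNA repair and metabolism when cells are stressed. AICAR enters cells through nucleoside transporters and is phosphorylated by adenosine kinase to an AMP analogue, an intermediate of purine synthesis that activates the energy sensor AMPK. Nutlin binds MDM2 and blocks its pocket for p53, and was the other p53 stimulator of the study.

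All 12 hepatocyte and hepatoma markers measured, from ALB to KRT18, had mean levels between 10.85 and 12.77. Of the endothelial markers, 1 of 8 had a mean above 4.58, the level under which genes counted as dim, and so did 6 of 8 fibroblast, 3 of 6 leukocyte and 8 of 9 cholangiocyte or progenitor markers. The median level of those 9 cholangiocyte or progenitor markers was 7.54 and 7.72 in the sh-con DMSO arrays, 5.80 and 6.16 in sh-con AICAR, 7.80 and 7.83 in sh-p53 DMSO and 6.49 and 6.70 in sh-p53 AICAR. Gene by gene the change was smaller. The median response of the 8 tested was -0.04 in sh-con, where 1 rose and 1 fell, and -0.21 in sh-p53, where 3 fell. Of all genes, 14.6% rose and 23.2% fell in sh-con, and 21.6% fell in sh-p53. None of the 8 markers was called in the interaction (background 1.01% of all genes), and their part in the results was not tested. In RNA of whole wells, fewer cells of a kind and less RNA per cell cannot be told apart. Levels of the targeted transcript itself are not analysed here. In DMSO the p53 targets CDKN1A and MDM2 differed between sh-p53 and sh-con by -0.76 and -0.68. Duplicates correlated at 0.983 to 0.994 over genes, and the sh-con AICAR duplicates stood farthest apart, with a standard deviation of 0.302 for their difference.

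In the interaction, 98 genes were lower in sh-p53 than in sh-con (0.709% of the genes tested) and 42 were higher (0.304%), by limma's moderated test over all 12 arrays with Benjamini-Hochberg adjustment. At least 2-fold differences were found for 77 of the lower and 15 of the higher genes. The median over all genes tested was 0.02 with a standard deviation of 0.318, and the median standard error of a gene was 0.216. Both lines responded to AICAR on a far larger scale. In sh-con 2023 genes rose (14.6%) and 3198 fell (23.2%), and in sh-p53 2235 rose (16.2%) and 2982 fell (21.6%). Centring the arrays on their medians moved the median of all genes by -0.141 in sh-con and by -0.152 in sh-p53, and these counts became 1103 and 3920 in the control line and 1100 and 3665 in sh-p53. The sh-con counts were 1164 and 2009 without sh-con DMSO replicate 1, and 1436 genes rose and 1925 fell in sh-p53 without sh-p53 AICAR replicate 1, while 1407 and 1382 rose there without sh-p53 DMSO replicate 1 and 2. The interaction shifted by only -0.011, yet the calls became 74 lower and 15 higher, so that 16.9% in place of 30.0% of the calls were higher.

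The number of calls depended on single arrays. Without 1 of the 8 arrays, between 35 and 170 genes were called lower and between 3 and 73 higher. Calls fell to 38 lower and 3 higher without sh-con DMSO replicate 1, to 43 and 8 without sh-con DMSO replicate 2, to 40 and 8 without sh-p53 DMSO replicate 1, and to 35 and 5 without sh-p53 DMSO replicate 2. Leaving out sh-con AICAR replicate 1 gave 64 and 73, sh-con AICAR replicate 2 gave 170 and 30, sh-p53 AICAR replicate 1 gave 37 and 14, and sh-p53 AICAR replicate 2 gave 59 and 9. In these 8 fits all 98 and all 42 genes kept their direction. The genes were chosen as called with all arrays, most of which each fit keeps. A reversal was thus unlikely beforehand, and the kept direction is no test of stability. A set of 28 lower genes, and HCFC1, PLAU and BAHD1 among the higher ones, were called in each of the 8 fits.

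**Figure D1:**
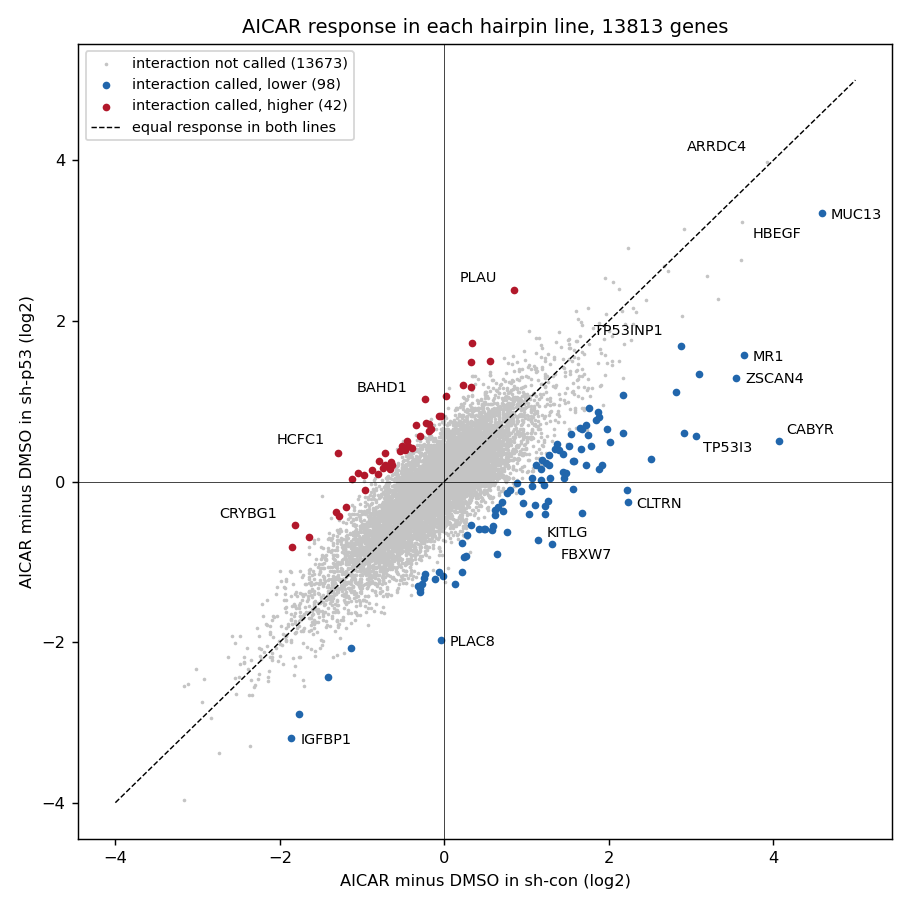
AICAR minus DMSO in sh-con (horizontal, log2) against the same difference in sh-p53 (vertical, log2), 1 point per gene, with the dashed line marking an equal response. The 98 genes called lower lie below the line, most of them to the right of 0, and the 42 called higher lie above it, while ARRDC4 and HBEGF responded strongly close to the line.

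The lower genes were for the most part genes that AICAR raised in the control line. Of the 98, 39 rose in sh-con and were not called in sh-p53, 27 rose in both lines but less in sh-p53, and 10 rose in sh-con and fell in sh-p53. A further 18 fell in sh-p53 and were not called in sh-con, and 4 fell in both lines, more so in sh-p53. The median response of the 98 genes was 1.22 in sh-con and -0.05 in sh-p53. Their median difference between lines was -0.02 in DMSO and -1.28 in AICAR. The values of the responses share arrays with the interaction that chose the genes and are given as a description.

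CABYR, a calcium-binding protein known from the sperm tail, had the lowest interaction. It read 4.32 and 4.46 in sh-con DMSO, 8.38 and 8.53 in sh-con AICAR, 4.69 and 4.42 in sh-p53 DMSO, and 5.07 and 5.05 in sh-p53 AICAR. The 2 sh-con AICAR arrays stood more than 3 log2 units above the other 6. The interaction was -3.57 ± 0.20 (SE, n = 2 arrays per group, limma adjusted p = 1.78e-08). Its DMSO means lay below the dim level of 4.58, so the size is uncertain.

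TP53I3, a p53 target that encodes a quinone oxidoreductase-like enzyme, followed at -2.49 ± 0.22 (limma adjusted p = 9.21e-06). Its level was 7.98 and 8.06 in sh-con DMSO and 11.13 and 11.02 in sh-con AICAR, against 7.56 and 7.78 in sh-p53 DMSO and 8.12 and 8.36 in sh-p53 AICAR. The AICAR arrays of each line lay above its DMSO arrays, by 8.34-fold on average in sh-con and by 1.48-fold in sh-p53.

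CLTRN, or collectrin, a membrane protein that supports amino acid transporters, and CSTA, or cystatin A, an inhibitor of cysteine proteases, rose in sh-con only by the tests of the single lines, and the interaction tests that difference. CLTRN had levels of 4.01 and 3.91 in sh-con DMSO, 6.25 and 6.12 in sh-con AICAR, 4.03 and 3.89 in sh-p53 DMSO, and 3.86 and 3.54 in sh-p53 AICAR (interaction -2.49 ± 0.22, limma adjusted p = 8.1e-06). With 3 of its 4 groups below the dim level, the size of its difference is uncertain. CSTA measured 5.10 and 5.20 in sh-con DMSO, 7.44 and 7.31 in sh-con AICAR, 4.93 and 4.79 in sh-p53 DMSO, and 4.83 and 4.68 in sh-p53 AICAR (interaction -2.33 ± 0.19, limma adjusted p = 3.83e-06). For both genes the sh-p53 AICAR arrays overlapped the range of, or lay below, the sh-p53 DMSO arrays.

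MR1, which presents vitamin B metabolites to a class of innate-like T cells, and ZSCAN4, a zinc finger protein of early embryos, rose in both lines. MR1 went from 6.41 and 6.17 to 10.01 and 9.85 in sh-con, and from 6.05 and 5.96 to 7.52 and 7.64 in sh-p53. That was a 12.5-fold against a 2.97-fold difference, with an interaction of -2.07 ± 0.22 (limma adjusted p = 5.03e-05). ZSCAN4 went from 4.10 and 3.94 to 7.72 and 7.41 in sh-con and from 3.50 and 3.77 to 4.91 and 4.95 in sh-p53 (interaction -2.25, limma adjusted p = 1.41e-05). Both DMSO means of ZSCAN4 lay below the dim level, which leaves its size uncertain.

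The other 6 of the 12 lowest genes were LACC1, HCAR3, FBXW7, TMC7, PLAC8 and KITLG, with interactions from -2.30 to -1.88. LACC1, an enzyme of nucleoside metabolism studied in macrophages, rose by 2.92 in sh-con and by 0.61 in sh-p53, from DMSO means below the dim level. HCAR3, a receptor for hydroxylated fatty acids, rose by 2.51 in sh-con and differed by 0.28 in sh-p53. Its near-identical neighbour HCAR2 had an interaction of -1.35, and the probes may not separate both. TMC7, a member of the transmembrane channel-like family, rose by 1.68 in sh-con and differed by -0.39 in sh-p53. All 12 were called in each of the 8 fits that left out an array.

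**Figure D2:**
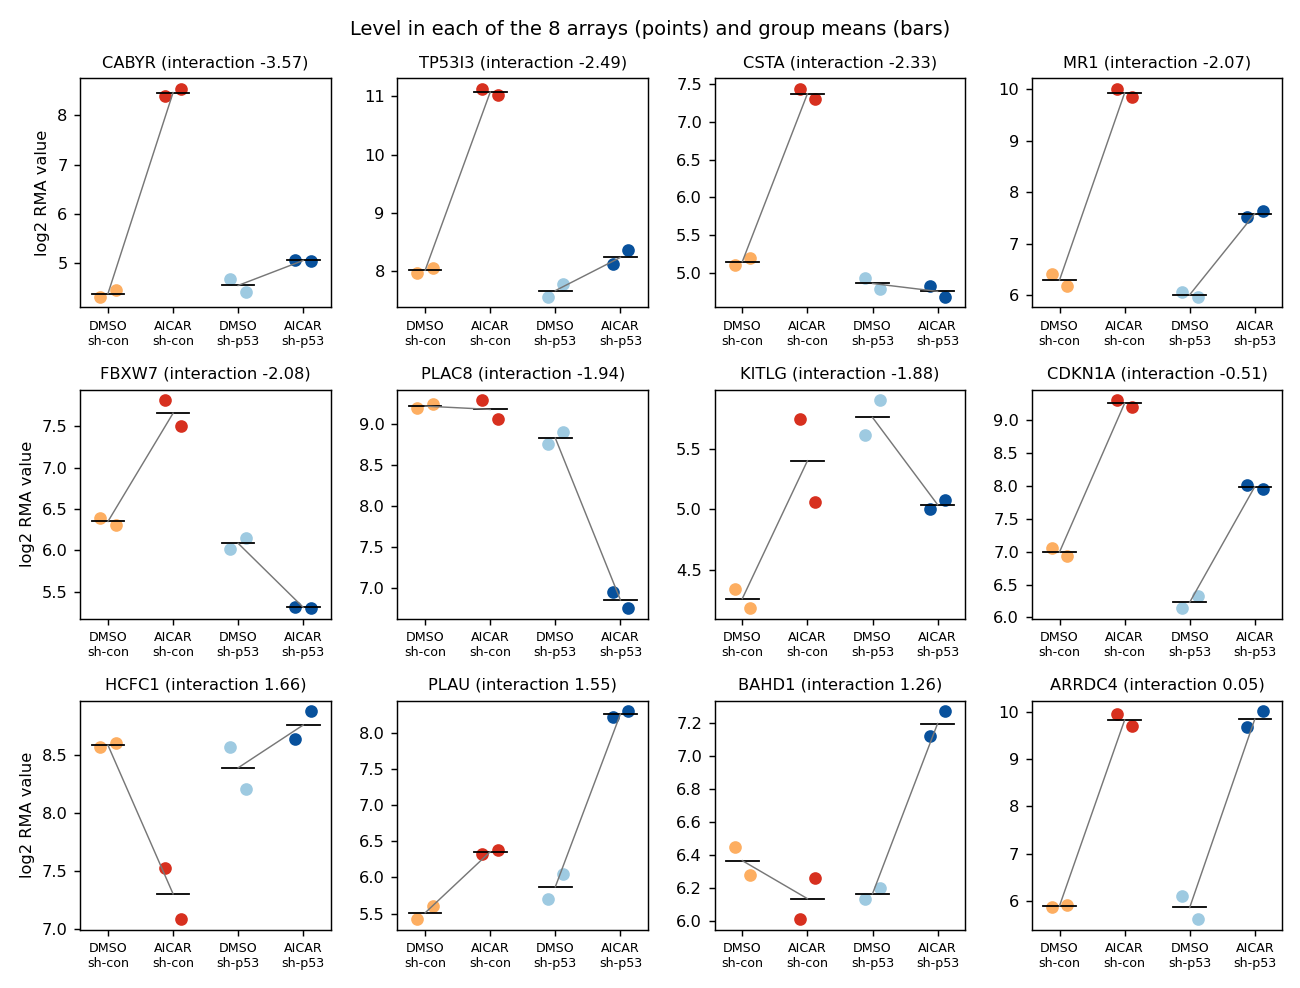
Log2 RMA level of 12 genes in each of the 8 arrays (points), with group means as bars and a grey line joining DMSO to AICAR in each line; the vertical axis differs between panels. CABYR, TP53I3, CSTA and MR1 rise far more in sh-con than in sh-p53, PLAC8 drops in sh-p53 only, HCFC1, PLAU and BAHD1 end higher in sh-p53, and ARRDC4 rises alike in both.

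The promoters of the named genes were searched for the p53 half-site, the short palindromic motif of which p53 binds a pair, on both strands and from 250 bases before to 50 bases after the RefSeq start. Of the 51 named genes called in the interaction, 35 had a promoter in the RefSeq table. A match was held by 3 of these 35, and all 3 are shown, the lowest interaction first. Each line gives the 250 bases before the start, 5′ to 3′ on the gene's strand, with every match in capitals. MR1 lies on the plus strand at chr1:181033137-181033386, HEPACAM on the minus strand at chr11:124936048-124936297 and MCC on the minus strand at chr5:113488454-113488703, all in GRCh38.p14.
MR1: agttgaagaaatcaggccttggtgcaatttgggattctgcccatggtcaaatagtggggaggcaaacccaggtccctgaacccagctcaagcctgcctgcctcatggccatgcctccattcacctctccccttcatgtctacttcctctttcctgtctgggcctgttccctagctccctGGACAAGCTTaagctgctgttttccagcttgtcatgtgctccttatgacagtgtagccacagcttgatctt
HEPACAM: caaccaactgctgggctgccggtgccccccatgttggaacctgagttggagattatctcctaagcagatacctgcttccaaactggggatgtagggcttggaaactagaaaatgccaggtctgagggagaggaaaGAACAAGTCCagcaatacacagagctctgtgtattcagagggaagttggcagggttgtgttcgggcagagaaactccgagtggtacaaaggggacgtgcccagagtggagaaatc
MCC: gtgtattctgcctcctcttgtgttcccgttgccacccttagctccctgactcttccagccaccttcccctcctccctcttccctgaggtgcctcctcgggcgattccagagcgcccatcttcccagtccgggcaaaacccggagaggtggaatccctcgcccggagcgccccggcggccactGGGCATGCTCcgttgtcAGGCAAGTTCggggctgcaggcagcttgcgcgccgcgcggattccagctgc
The match starts at base 180 of the MR1 line, at base 136 of the HEPACAM line, and at bases 183 and 200 of the MCC line. MR1 and HEPACAM had interactions of -2.07 and -1.55, and MCC, a gene named for its mutation in colorectal cancer, one of 1.06. Among the genes called lower, 7 of 77 with a promoter held the half-site (9.09%), as did 1 of 32 called higher (3.12%) and 559 of all 10836 tested genes with a promoter (5.16%). TATAAA was found in 14.3%, 0% and 6.48% of the same promoters, CCAAT in 36.4%, 28.1% and 35.9%, TTTGAA in 5.19%, 6.25% and 9.61%, and GGGCGG in 53.2%, 84.4% and 68.1%. A match describes the letters in this window and is not a binding site.

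Known p53 target genes, grouped in 6 lists by role, held 14 of the 98 lower genes and none of the 42 higher ones. These 14 were 15.4% of the 91 members tested, against 0.709% of all genes, and the median interaction of the 91 was -0.37, against 0.02. The lists were chosen with earlier results of these data known, so this contrast is a description. In all, 75 of the 91 (82.4%) had an interaction below 0, against 46.4% of all genes. In sh-con 58 of the 91 rose and 10 fell, with a median response of 0.69, where 14.6% of all genes rose and 23.2% fell. In sh-p53 29 rose and 17 fell, with a median of 0.20, where 16.2% of all genes rose and 21.6% fell. The count of 14 ranged from 8 to 17 when single arrays were left out, and was 8 without sh-con DMSO replicate 1, sh-p53 DMSO replicate 2 or sh-p53 AICAR replicate 1, and 9 without sh-con DMSO replicate 2 or sh-p53 DMSO replicate 1. It was 22 with an intensity trend and a robust prior. The share of 0.709% over all genes is also the background for the lower genes of each single list.

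The feedback genes, whose products act back on p53, contained 2 lower genes among 10 tested, with a median of -0.45. TP53INP1, a stress protein that promotes p53 phosphorylation, measured 7.75 and 7.74 in sh-con DMSO, 10.70 and 10.54 in sh-con AICAR, 7.12 and 7.28 in sh-p53 DMSO and 8.83 and 8.96 in sh-p53 AICAR. It rose in both lines, 7.34-fold and 3.24-fold, and the groups of each line did not overlap (interaction -1.18, limma adjusted p = 0.00399). PPM1D, the phosphatase WIP1 that switches p53 signalling off, had an interaction of -0.85 (limma adjusted p = 0.0367), a call that was lost in 7 of the 8 fits without 1 array, with an adjusted p of up to 0.168. The PPM1D call was also lost with arrays centred on their medians. MDM2 went from 10.63 and 10.47 in DMSO to 11.25 and 11.25 in AICAR in the control line. In sh-p53 it went from 9.78 and 9.96 to 9.96 and 10.12. It rose by 0.69 in sh-con and differed by 0.17 in sh-p53, and its interaction of -0.52 (95% interval -0.93 to -0.12) was not called (limma adjusted p = 0.227).

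The growth arrest genes held 1 lower gene among 10 tested, with a median of -0.28. CDKN1A, the cyclin-dependent kinase inhibitor p21, read 7.06 and 6.93 in sh-con DMSO, 9.31 and 9.21 in sh-con AICAR, 6.14 and 6.32 in sh-p53 DMSO, and 8.02 and 7.96 in sh-p53 AICAR. AICAR raised it in both lines, 4.81-fold and 3.39-fold, and the sh-p53 arrays were lower under either treatment. Its interaction of -0.51 (95% interval -0.91 to -0.11) was not called (limma adjusted p = 0.24). The called member, GDF15, a stress cytokine, went from 10.45 and 10.52 in DMSO to 10.88 and 10.57 in AICAR in the control line, and from 10.32 and 10.35 to 9.39 and 9.40 in sh-p53. It fell in sh-p53 and was not called in sh-con (interaction -1.17, limma adjusted p = 0.0136), and the call was lost without sh-con DMSO replicate 1, either sh-p53 DMSO array or sh-p53 AICAR replicate 1, with an adjusted p of up to 0.0735. PLK2 and PLK3, stress-induced polo-like kinases, rose by 2.72 and 2.33 in sh-con and by 2.62 and 2.11 in sh-p53.

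Among the apoptosis genes 3 of 17 tested were lower, with a median of -0.35. APAF1, the scaffold of the apoptosome, measured 7.85 and 7.84 in sh-con DMSO, 9.49 and 9.16 in sh-con AICAR, 8.04 and 7.90 in sh-p53 DMSO and 8.01 and 8.14 in sh-p53 AICAR (interaction -1.37, limma adjusted p = 0.00265). The sh-con AICAR arrays were the highest 2 of the 8, and the sh-p53 groups overlapped. The death receptor genes TNFRSF10A and FAS rose in both lines, by 1.44 and 1.88 in sh-con and by 0.34 and 0.80 in sh-p53, with interactions of -1.10 and -1.08. FAS lost its call without any 1 of the DMSO arrays or without sh-p53 AICAR replicate 1 (adjusted p up to 0.118). PMAIP1, the BH3-only protein NOXA, rose by 3.33 and 2.27, and its interaction of -1.06 missed the threshold (limma adjusted p = 0.0528). BAX, the effector of mitochondrial permeabilisation, had an interaction of 0.05, and BBC3, the BH3-only protein PUMA, one of 0.11.

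None of the 10 DNA repair genes tested was called in the interaction, and their median was -0.21. With 1.01% of all genes called, a list of this size would often hold none. RRM2B, a ribonucleotide reductase subunit, rose by 1.15 in sh-con and differed by 0.29 in sh-p53 (interaction -0.86, limma adjusted p = 0.062). POLH, a translesion polymerase, rose by 0.90 in the control line and by 1.02 in sh-p53, and FANCC, of the Fanconi anaemia core complex, fell by 1.85 and 1.78.

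The redox and metabolism genes gave 4 lower genes among 16 tested, with a median of -0.40. Besides TP53I3 these were CMBL, a hydrolase (interaction -1.49), TIGAR, a fructose bisphosphatase that lowers glycolytic flux (-1.32), and CES2, a carboxylesterase of the liver (-1.0). TIGAR measured 7.59 and 7.53 in sh-con DMSO, 9.07 and 8.93 in sh-con AICAR, 7.06 and 7.50 in sh-p53 DMSO and 7.16 and 7.64 in sh-p53 AICAR (limma adjusted p = 0.0207). Its 2 sh-con AICAR arrays stood above all others, and the sh-p53 groups overlapped. Its call was lost without either sh-con DMSO array, sh-p53 DMSO replicate 2 or sh-p53 AICAR replicate 1 (adjusted p up to 0.144), and that of CES2 in 7 of the 8 such fits (up to 0.118). SESN1 and SESN2, the sestrins that act between p53, AMPK and mTORC1, rose in both lines, by 1.47 and 1.89 in sh-con and by 1.10 and 1.19 in sh-p53, with interactions of -0.37 and -0.70 that were not called.

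Of the 28 other p53 targets tested, KITLG, TRIM22, ANKRA2 and SUSD6 were lower, and the median was -0.41. TRIM22, an interferon-inducible antiviral protein, went from 4.22 and 4.37 in DMSO to 6.44 and 5.90 in AICAR in the control line, and from 4.02 and 4.03 to 4.18 and 4.16 in sh-p53 (interaction -1.73, limma adjusted p = 0.00137). Of its DMSO and AICAR groups only sh-con AICAR was above the dim level, so its size is uncertain. ANKRA2, an ankyrin repeat protein, had an interaction of -1.62. SUSD6, a sushi domain protein, had one of -1.13, a call lost without any 1 of the DMSO arrays or without sh-p53 AICAR replicate 1 (adjusted p up to 0.102). ATF3, the stress transcription factor, rose by 1.47 in sh-con and by 1.37 in sh-p53 (interaction -0.10).

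**Figure D3:**
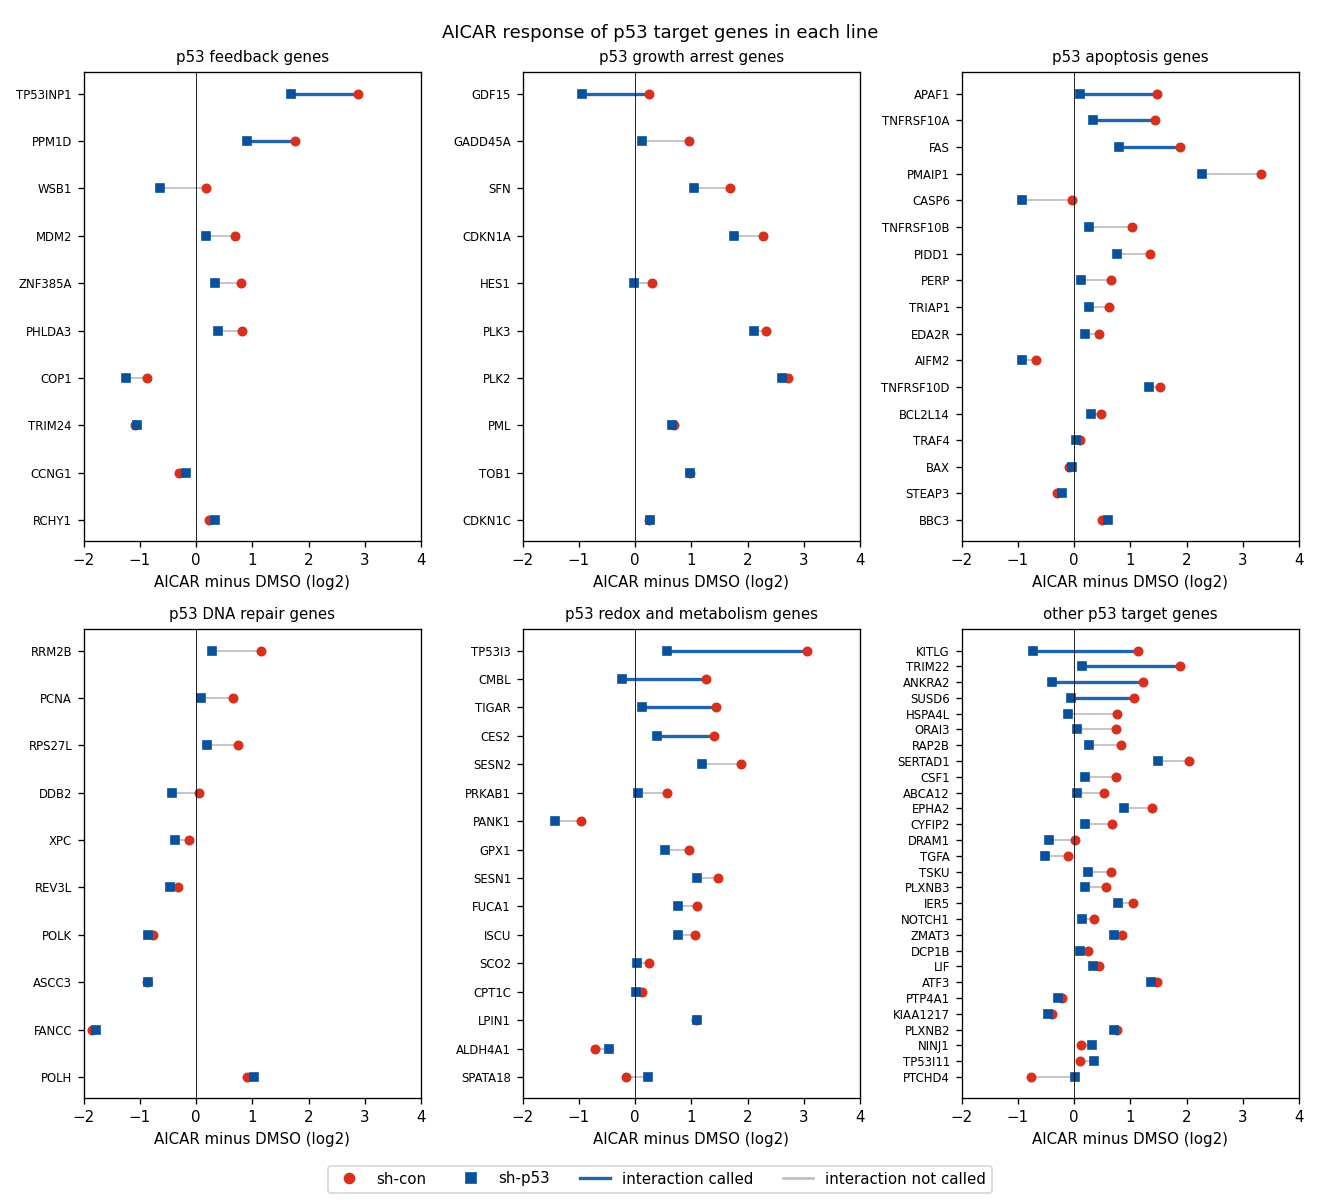
AICAR minus DMSO (log2) in sh-con (red circles) and sh-p53 (blue squares) for the 91 p53 target genes tested, in 6 panels by role and sorted by interaction, with a blue line where the interaction was called. The sh-p53 value lies to the left of the sh-con value for 75 genes, and 14 lines are blue.

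In 16 of the called genes AICAR moved both lines in opposite directions, with 10 rising in sh-con and falling in sh-p53 and 6 the reverse. FBXW7, KITLG, HEPACAM, INPP1, TMEM68 and SRSF8 are the 6 of these 16 genes whose weaker response was largest, and all 6 rose in sh-con and fell in sh-p53. FBXW7, the substrate receptor of a ubiquitin ligase for cyclin E and MYC, measured 6.39 and 6.31 in sh-con DMSO and 7.82 and 7.50 in sh-con AICAR. In sh-p53 it measured 6.02 and 6.15 in DMSO and 5.32 and 5.30 in AICAR. No group overlapped another, with sh-con AICAR highest and sh-p53 AICAR lowest (interaction -2.08 ± 0.28, limma adjusted p = 0.000647).

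KITLG, the ligand of the receptor tyrosine kinase KIT, went from 4.34 and 4.18 in DMSO to 5.75 and 5.06 in AICAR in the control line, and from 5.62 and 5.91 to a mean of 5.04 in sh-p53, where its AICAR duplicates were close. Its mean in sh-p53 differed from that in sh-con by 1.51 in DMSO and by -0.37 in AICAR. The sh-con DMSO mean was below the dim level and the sh-con AICAR duplicates differed by more than those of any other group, which makes the size uncertain (interaction -1.88 ± 0.26, limma adjusted p = 0.000978).

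HEPACAM, an adhesion protein first described in liver, went from 6.62 and 6.65 to 7.46 and 7.09 in sh-con and from 6.62 and 6.40 to 5.70 and 5.51 in sh-p53 (interaction -1.55, limma adjusted p = 0.00413). INPP1, an inositol phosphatase, rose by 0.76 and fell by 0.63, TMEM68, a transmembrane protein, by 0.58 and 0.60, and SRSF8, a splicing factor, by 0.59 and 0.55. TMEM68 lost its interaction call in 5 of the 8 fits without 1 array (adjusted p up to 0.195) and SRSF8 in 3 (up to 0.0735). RBM47, an RNA-binding protein that rose by 1.03 and fell by 0.41, was called in each of them. The 6 genes that fell in sh-con and rose in sh-p53 were FASN, TTPA, GLRX5, PPP6R1, LIMK1 and SF3A1, with responses between -0.54 and 0.50.

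PLAC8, a small cysteine-rich protein, led the 18 genes that fell in sh-p53 and were not called in sh-con. It measured 9.19 and 9.24 in sh-con DMSO, 9.29 and 9.06 in sh-con AICAR, 8.75 and 8.90 in sh-p53 DMSO and 6.95 and 6.75 in sh-p53 AICAR. The sh-p53 AICAR arrays alone were low, by 3.93-fold from their DMSO mean (interaction -1.94 ± 0.21, limma adjusted p = 6.38e-05). DDIT4, or REDD1, an inhibitor of mTORC1, went from 8.34 and 8.41 in DMSO to 8.65 and 8.08 in AICAR in the control line, and from 8.66 and 8.75 to 7.55 and 7.51 in sh-p53. Its interaction of -1.17 (limma adjusted p = 0.0365) was lost in 7 of the 8 fits without 1 array, all but the one without sh-con AICAR replicate 2 (adjusted p up to 0.176).

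The amino acid response genes, among which DDIT4 is listed, held 1 other called gene among 44 tested, so that 4.55% were lower against 0.709% of all genes. NUPR1, a stress-induced chromatin protein, went from 5.47 and 5.94 in DMSO to 7.31 and 7.54 in AICAR in the control line, and from 5.69 and 5.52 to 5.87 and 5.76 in sh-p53 (interaction -1.51, limma adjusted p = 0.00233). Of the 44 members 24 fell in sh-con (23.2% of all genes did) and 25 fell in sh-p53 (21.6% of all genes), and the median interaction was 0.03.

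Of 24 genes of gluconeogenesis and glucose output, IGFBP1 and PCK1 were lower (8.33%, against 0.709% of all genes). IGFBP1, an insulin-repressed binding protein of insulin-like growth factors made by the liver, went from 10.74 and 10.77 in DMSO to 9.04 and 8.75 in AICAR in the control line, and from 10.47 and 10.31 to 7.43 and 6.94 in sh-p53. AICAR lowered it in both lines, 3.62-fold and 9.21-fold (interaction -1.35, limma adjusted p = 0.0426). PCK1, the cytosolic PEP carboxykinase, fell by 0.59 in sh-p53 and differed by 0.42 in sh-con (interaction -1.01, limma adjusted p = 0.0444). Without single arrays both calls were lost in most fits, with an adjusted p of up to 0.174 for each. Both calls were also lost with the values quantile normalised again and with no filter on dim genes. The PCK1 call was lost with arrays centred on their medians too. IGFBP1 was also the sole called member of 13 genes of the IGF system (7.69%, against 0.709% of all genes lower).

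PLTP, the phospholipid transfer protein, was the 1 called member of 22 lipoprotein genes (4.55%, against 0.709% of all genes lower). Its 7.44 and 7.39 in sh-con DMSO became 9.11 and 8.88 in AICAR, while sh-p53 had 7.29 and 7.20 in DMSO and 7.13 and 7.17 in AICAR (interaction -1.66 ± 0.21, limma adjusted p = 0.000366). The dual-specificity phosphatase DUSP14 was the 1 called member of 35 immediate early and stress kinase genes (2.86%, against the same background). It rose by 1.75 in sh-con and by 0.58 in sh-p53 (interaction -1.17). It lost its call without sh-con DMSO replicate 2, sh-p53 DMSO replicate 2 or sh-p53 AICAR replicate 1 (adjusted p up to 0.0915). MUC13, a transmembrane mucin with the largest rise in sh-con among the called genes, is named after its values were seen. It rose 24.1-fold in sh-con and 10.1-fold in sh-p53 (interaction -1.25, limma adjusted p = 0.0191), but its sh-con DMSO mean was dim.

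The 42 higher genes had smaller interactions, with a median of 0.94. Of these, 15 fell in sh-con and were not called in sh-p53, 14 rose in sh-p53 and were not called in sh-con, 6 fell in sh-con and rose in sh-p53, 5 fell in both and 2 rose in both. Their median response was -0.53 in sh-con and 0.39 in sh-p53. In the DMSO and AICAR groups none had a mean below the dim level, against 15 of the 98 lower genes.

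HCFC1, host cell factor 1, a co-regulator that recruits chromatin-modifying enzymes, was the highest. It measured 8.57 and 8.60 in sh-con DMSO, 7.52 and 7.08 in sh-con AICAR, 8.57 and 8.21 in sh-p53 DMSO and 8.64 and 8.88 in sh-p53 AICAR. The 2 sh-con AICAR arrays were the lowest of the 8 (interaction 1.66 ± 0.24, limma adjusted p = 0.00148). PLAU, the protease urokinase, went from 5.42 and 5.60 in DMSO to 6.33 and 6.38 in AICAR in the control line, and from 5.70 and 6.04 to 8.22 and 8.30 in sh-p53. It rose 1.80-fold in sh-con and 5.26-fold in sh-p53 (interaction 1.55 ± 0.20, limma adjusted p = 0.000647). BAHD1, a heterochromatin protein, went from 6.45 and 6.28 in DMSO to 6.01 and 6.26 in AICAR in the control line, and from 6.13 and 6.20 to 7.12 and 7.27 in sh-p53, so that the sh-p53 AICAR arrays alone were high (interaction 1.26, limma adjusted p = 0.00457).

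The other 9 of the 12 highest genes had interactions from 1.05 to 1.39, and each lost its call in at least 1 of the fits without 1 array. FAM111B, a protease with a role in DNA replication, rose by 1.73 in sh-p53 and differed by 0.34 in sh-con, and CRYBG1, a crystallin-domain protein, fell by 1.81 in sh-con and by 0.54 in sh-p53. GPER1, a membrane receptor for oestrogen, fell by 1.05 in sh-con, SLC46A1, the proton-coupled folate transporter, by 0.80, and TNFAIP3, the ubiquitin-editing inhibitor of NF-kappaB known as A20, by 0.72, and none was called in sh-p53. SNORA20, a small nucleolar RNA, rose by 1.49 in sh-p53, and RMRP, the RNA of RNase MRP, by 0.71. The RNA of the related RNase P, RPPH1, had an interaction of 0.89 and is named after its values were seen. TNFAIP3 was the 1 called member of 26 inflammation and interferon genes (3.85%, against 0.304% of all genes higher). Its call was also lost with arrays centred on their medians, and that of FAM111B with no filter on dim genes. The fits without sh-con DMSO replicate 1 lost all 9 calls, with adjusted p values of up to 0.206 for TNFAIP3 and 0.163 for FAM111B over the 8 fits.

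Of the AMPK genes and the genes listed under AICAR uptake and purine metabolism, 1 was called, and it belongs to pyrimidine synthesis. None of 22 AMPK subunits and partners was called in the interaction, with values from -0.51 to 0.46 and a median of 0.13, where 1.01% of all genes were called. PRKAB1, the AMPK beta subunit that is also listed as a p53 target, rose by 0.56 in sh-con and differed by 0.05 in sh-p53 (interaction -0.51, limma adjusted p = 0.239). Of the 31 genes listed under AICAR uptake and purine metabolism, 1 was higher (3.23%, against 0.304% of all genes). The other 30 were not called, and the median was 0.12. The higher gene, CAD, encodes the enzyme that starts pyrimidine rather than purine synthesis. It went from 8.21 and 8.12 in DMSO to 7.14 and 6.96 in AICAR in the control line, and from 8.16 and 7.93 to 8.03 and 8.11 in sh-p53 (interaction 1.14 ± 0.20, limma adjusted p = 0.0095). It fell 2.17-fold in sh-con and its sh-p53 groups overlapped. The call was lost without sh-con DMSO replicate 1 or sh-p53 DMSO replicate 2 (adjusted p up to 0.0782).

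Of 21 fatty acid and triglyceride synthesis genes 3 had an interaction below 0, and the median was 0.28. FASN, fatty acid synthase, was the 1 called member (4.76%, against 0.304% of all genes higher). It went from 10.02 and 9.99 in DMSO to 9.57 and 9.55 in AICAR in the control line, and from 9.94 and 9.67 to 10.22 and 10.39 in sh-p53 (interaction 0.95, limma adjusted p = 0.0359). The call was lost in 6 of the 8 fits without 1 array and with arrays centred on their medians (adjusted p up to 0.231 without 1 array). None of 19 cholesterol synthesis genes was called in the interaction. In sh-con 11 of them rose and in sh-p53 12, against 14.6% and 16.2% of all genes. Of the 33 lists that are not lists of p53 targets, 22 had no member called, and with 1.01% of all genes called lists of this size would often hold none. These include the unfolded protein response, NRF2, glycolysis, oxidative phosphorylation, ribosome biogenesis, P450 and plasma protein genes.

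Single cell cycle genes were called in the AICAR interaction, where 0.304% of all genes were higher. Of 49 S phase genes 1 was higher (2.04%), with a median of 0.36 and 11 values below 0, and of 57 mitosis genes 1 was higher (1.75%), with a median of -0.04. UHRF1, which copies DNA methylation at replication forks, fell by 0.88 in sh-con and differed by 0.14 in sh-p53 (interaction 1.02). A dimmer probe set of UHRF1 gave an interaction of 0.17, and the call was lost with the mean of both. MYBL2, the B-MYB subunit of the complex that activates mitotic genes, had an interaction of 0.85 that was lost in all 8 fits without 1 array, with arrays centred and with the 8 arrays fitted alone. E2F8, an atypical E2F repressor and the 1 called of 25 pocket protein, cyclin and CDK inhibitor genes, rose by 1.20 in sh-p53 and differed by 0.23 in sh-con (interaction 0.98). It lost its call without any 1 of the DMSO arrays or without sh-p53 AICAR replicate 2, and UHRF1 lost it without the same arrays.

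Several of the strongest responses to AICAR were of like size in both lines. Of 1069 genes called in both lines and changed at least 2-fold in sh-con, 840 had a 95% interval of the interaction that lay within 1 log2 unit of 0 on either side, as did 12502 of all 13813 genes tested. These 1069 genes were chosen as called in both lines, so the count does not measure how much of the response was shared. ARRDC4, an arrestin-domain protein, went from 5.88 and 5.91 in DMSO to 9.95 and 9.69 in AICAR in the control line. In sh-p53 it went from 6.11 and 5.61 to 9.67 and 10.01. The AICAR arrays of both lines overlapped, at 15.2-fold and 15.7-fold above DMSO (interaction 0.05, 95% interval -0.51 to 0.61). HBEGF, a ligand of the EGF receptor, rose 12.3-fold and 9.35-fold (interaction -0.40, 95% interval -0.82 to 0.02).

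Other shared responses with the largest sh-con values ran both ways. CSRNP2, a nuclear protein of a cysteine- and serine-rich family, rose by 2.67 in sh-con and by 2.69 in sh-p53. NSRP1, a splicing regulator, fell by 2.84 and 2.94, RSRC1, an arginine- and serine-rich splicing protein, by 2.55 and 2.45, and SNORD49A, a small nucleolar RNA, had responses of -2.95 and -2.75.

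Whether both lines differed in AICAR otherwise than in Nutlin was tested by subtracting the Nutlin interaction from the AICAR interaction. The DMSO arrays cancel in this difference, and the sh-p53 and sh-con arrays of both treatments remain. In it 7.88% of the genes were called, 724 of them lower (5.24%) and 364 higher (2.64%), and 858 and 729 with the values quantile normalised again. Without sh-p53 Nutlin replicate 1 there were 409 and 173, without sh-p53 AICAR replicate 1 426 and 211, without sh-con Nutlin replicate 2 466 and 242, and without sh-con Nutlin replicate 1 or sh-p53 AICAR replicate 2 only 185 or 220 higher. The AICAR and Nutlin interactions share their DMSO arrays, so their likeness is given as values side by side and was not tested as a correlation. The 98 genes lower in AICAR had a median interaction of -1.15 in AICAR and of -1.07 in Nutlin, with 12 called lower and 11 called higher in the difference. The 42 higher genes had medians of 0.94 and 0.37, with 19 called higher and 2 called lower. Both sets were chosen by the AICAR interaction, which is 1 term of the difference, so that the choice itself shifts the difference in their direction.

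Single genes among the lowest in AICAR fell on both sides. CABYR measured 5.99 and 6.17 in sh-con Nutlin and 4.27 and 4.31 in sh-p53 Nutlin, and its interaction was -1.96 there, weaker than in AICAR by 1.61 (limma adjusted p of the difference = 2.61e-05). CSTA, at 8.51 and 8.59 in sh-con Nutlin against 5.03 and 4.96 in sh-p53 Nutlin, had a Nutlin interaction of -3.26, and the difference of 0.93 was called the other way (limma adjusted p = 0.00411). TP53I3 had a Nutlin interaction of -3.05, and its difference of 0.56 was not called (95% interval 0.09 to 1.04, limma adjusted p = 0.139). PLTP, with a Nutlin interaction of -3.57, differed by 1.91 (limma adjusted p = 5.2e-06).

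Among the p53 targets, 11 of the 91 were higher in the difference and none was lower, against 2.64% and 5.24% of all genes. CDKN1A had an interaction of -0.51 in AICAR and of -1.45 in Nutlin, where it measured 9.92 and 9.76 in the control line and 7.61 and 7.63 in sh-p53 (difference 0.95, limma adjusted p = 0.00358). MDM2 measured 12.07 and 12.21 in sh-con Nutlin and 11.20 and 11.17 in sh-p53 Nutlin, with a Nutlin interaction of -0.27 (difference -0.25, limma adjusted p = 0.471).

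Proliferation genes were frequent among the genes lower in the difference. The S phase list had 41 of 49 lower, the mitosis list 55 of 57 and the replication-dependent histones 23 of 34, against 5.24% of all genes. Their median differences were -1.66, -2.49 and -1.40, against 0.04. The median interactions of these lists were 0.36, -0.04 and -0.21 in AICAR, and 1.83, 2.46 and 1.16 in Nutlin. CDK1, the mitotic kinase, measured 8.16 and 7.98 in sh-con DMSO, a mean of 9.01 in sh-con AICAR and 4.45 and 3.85 in sh-con Nutlin. In sh-p53 it measured 7.97 and 8.49 in DMSO, 8.47 and 8.80 in AICAR and 7.74 and 7.43 in Nutlin. The sh-con Nutlin arrays alone were low, below the dim level, and the interaction was -0.53 in AICAR and 3.28 in Nutlin (difference -3.81, limma adjusted p = 7.49e-08).

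SPC25 and NUF2, subunits of the kinetochore complex NDC80, differed by -3.67 and -3.63. Their interactions were 0.24 and -0.29 in AICAR, neither called, and 3.91 and 3.34 in Nutlin. The sh-con Nutlin mean of SPC25 was 3.53, below the dim level, so its size is uncertain. The histone genes H2BC14, H2BC7 and H4C2 had differences of -4.52, -3.83 and -3.66. Their interactions were -0.45, -0.43 and -0.58 in AICAR, none of them called, and 4.07, 3.39 and 3.08 in Nutlin. Histone genes are near-identical to each other, so their probe sets may share transcripts.

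At the other end stood genes whose AICAR interaction lay far above their Nutlin interaction. ABCA12, a lipid transporter of the epidermis, measured 7.79 and 7.64 in sh-con Nutlin and between 3.78 and 4.38 in the 8 DMSO and AICAR arrays, all of which were dim (difference 3.35). LYVE1, a hyaluronan receptor and lymphatic endothelial marker, gave 3.24 with both sh-p53 groups below the dim level, and LCN15, a lipocalin, 2.66. For SERPINE2, a protease inhibitor, the difference was 1.93, with interactions of -1.03 in AICAR, lost in 6 of the 8 fits without 1 array (adjusted p up to 0.208), and -2.96 in Nutlin. The AICAR call of SERPINE2 was also lost with arrays centred on their medians and with no filter on dim genes. CCN1, a matricellular protein, had interactions of 0.44 and -1.77, and PLAU of 1.55 and -0.45, which gave differences of 2.21 and 1.99.

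**Figure D4:**
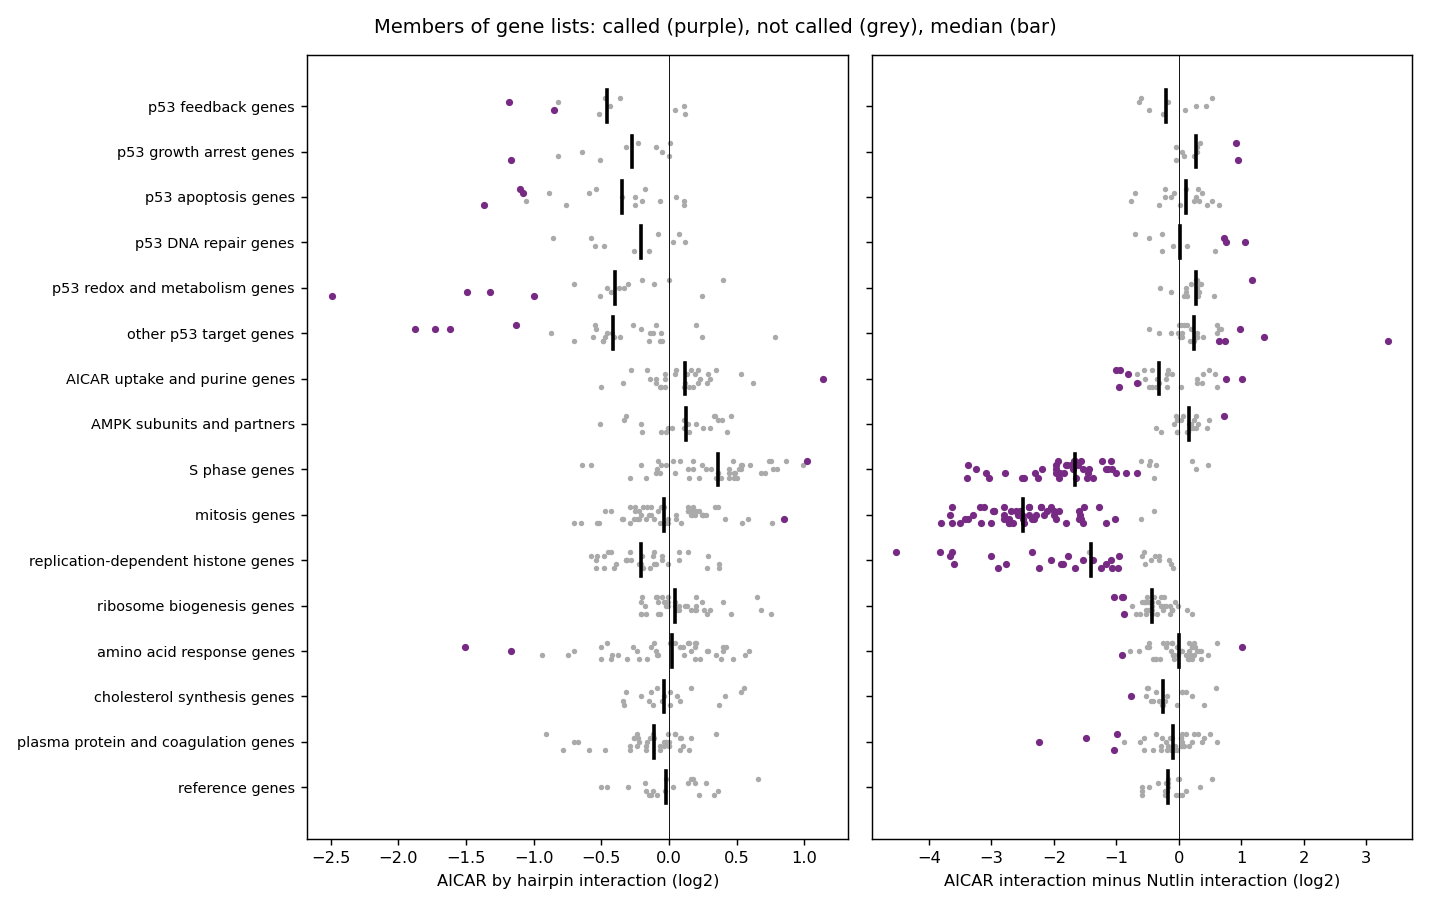
Members of 16 gene lists by their AICAR by hairpin interaction (left, log2) and by the AICAR interaction minus the Nutlin interaction (right, log2), with called genes in purple and the list median as a bar. On the left the p53 lists have medians from -0.45 to -0.21 and 14 purple genes below 0, and on the right the S phase, mitosis and histone genes lie far below 0.

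**Figure D5:**
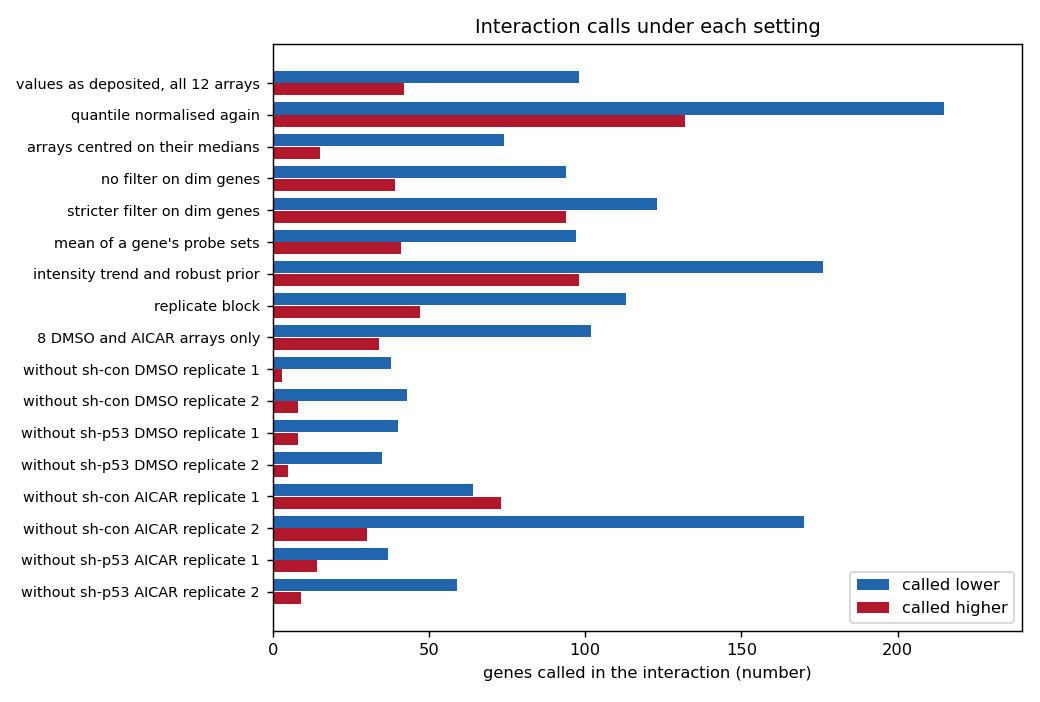
Number of genes called lower (blue) and higher (red) in the interaction under each setting, with bars from 0. The calls lie between 35 and 215 lower and between 3 and 132 higher, and leaving out any 1 DMSO array gives at most 43 lower and 8 higher.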

How the data were processed

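Gene expression was measured on 12 Affymetrix arrays of HepG2 cells, in 6 groups of 2 taken from the array titles. The deposited values are log2 levels per probe set, made by the authors with RMA and Partek, per the submitters' processing notes; their versions are not given in the sources used here. This method corrects background, brings array distributions closer and summarises probes. A change of most transcripts would thus be partly removed, and changes of dim genes are understated. The medians of the deposited arrays still ran from 5.64 to 5.84. The number of arrays limits the precision, and p-values measure the spread of duplicate wells.

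Of 33297 probe sets, 19460 had 1 symbol in the platform annotation, which can be old, 1754 had several and 12083 were unlisted and are unnamed here; 19433 matched RefSeq GRCh38.p14, which also gave the promoters. A gene was represented by its brightest probe set (769 of 18417 genes had several), and those whose mean lay below the 25th percentile of all genes (4.58) were left out. Group means of all 12 arrays were fitted with limma 3.58.1 in R 4.3.3 (6 residual degrees of freedom), and calls were made where the Benjamini-Hochberg adjusted p was below 0.05. The fit was tested on simulated data. The targeted transcript was not analysed here. One gene that the naming rule picks is not reported here.

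Named were the 12 lowest and highest called interactions, the 6 lowest and highest AICAR minus Nutlin differences, up to 6 genes called in opposite directions, the 8 largest sh-con responses whose interaction interval lay within 1 of 0, up to 4 called members per list, and CDKN1A, MDM2 and TP53I3. Other genes are examples from the lists of p53 targets or from tables of called genes. Members and lists were chosen with earlier results of these data known. Alternatives were quantile normalisation, median centring, no or a stricter dim filter, the mean of probe sets, an intensity trend with a robust prior, a replicate block, the 8 DMSO and AICAR arrays alone, and each array left out.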

Additional observations from a re-analysis of the deposited data

Results flagged for a closer look

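The responses of both lines to AICAR differed by the test of the interaction itself for 98 genes called lower and 42 called higher. The lines also differed between AICAR and Nutlin, by the test of the difference of interactions, for 724 genes called lower and 364 called higher. The lowest differences were those of H2BC14 (-4.52), H2BC7 (-3.83), CDK1 (-3.81), SPC25 (-3.67), H4C2 (-3.66) and NUF2 (-3.63). The highest were those of ABCA12 (3.35), LYVE1 (3.24), LCN15 (2.66), CCN1 (2.21), PLAU (1.99) and SERPINE2 (1.93). All are on the log2 scale. With 2 arrays per group, no single array was tested as an outlier.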

How the results depend on the processing

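The AICAR by hairpin interaction had 98 lower and 42 higher calls. These became 215 and 132 with the values quantile normalised again, and 74 and 15 with arrays centred on their medians. They were 123 and 94 with the stricter filter on dim genes, and 176 and 98 with an intensity trend and a robust prior. Without 1 array they ran from 35 to 170 lower and from 3 to 73 higher. In the AICAR response of sh-con, centring gave 1103 genes that rose, and leaving out 1 array gave 2009 to 3409 lower and 1164 to 2562 higher. In sh-p53 centring gave 1100 that rose, and the ranges were 1925 to 2813 lower and 1382 to 1848 higher. The difference of interactions had 729 higher calls with quantile normalisation and 211 with centring, and 409 to 1064 lower and 173 to 461 higher without 1 array. Among the 51 of the 71 named genes that were called in the interaction, no value reversed in the settings run, and 144 alternative values lost the call. These 51 were chosen as called, so a reversal was unlikely beforehand. In 4 alternative values, of genes without a call, the sign changed by at least the standard error of the gene. The other 975 counted as unchanged, which includes genes that stayed without a call and smaller changes of sign in such genes. The stricter filter left no endothelial marker to summarise. The replicate numbers were not taken as pairing all samples. Deviations of same-numbered arrays correlated between -0.558 and 0.567 over 15 pairs of groups, 7 of them above 0.1, and those among the 3 sh-con groups at 0.252, 0.493 and 0.435. A fit with the replicate number as a block gave 113 lower and 47 higher interaction calls. With the mean of a gene's probe sets UHRF1 lost its call. Signals near background limit what dim genes show, and 15 of the 98 lower genes had a DMSO or AICAR mean below the dim level.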
